A study of Mus musculus with 18 samples.

Results

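Coding joins made in G2-arrested cells that keep DNA-PKcs were compared between CtIP A/A and wild type, with 2 libraries of each genotype. These 4 libraries were chosen by their labelled genotype, arrest phase and break type. They held 1945 of the 30937 junctions in the 12 coding-join libraries of the series, whose labels list 18 samples in all. All were v-abl-transformed B cells of strain 129, lines of early B cells kept growing by an oncogenic Abl kinase, with a stably integrated pMX-INV recombination substrate. CtIP A/A cells carry alanine in place of the conserved ATM/ATR phosphorylation site of CtIP that the series is about, and both genotypes keep DNA-PKcs. Both groups were treated with the Abl inhibitor STI571 (3 µM, 24 h), which starts RAG cutting in such lines, and then with the CDK1 inhibitor RO3306 (10 µM, 48 h), which holds cells in G2. The labels do not say whether replicates were separate cultures or lines, so the tests measure the spread between these libraries, which may be technical, and genotype cannot be told apart from cell line. The tables hold no measurement of CtIP itself, so each genotype rests on its label.

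RAG cuts between a coding segment and the heptamer of its recombination signal, and leaves a hairpin-sealed coding end beside a blunt signal end. In classical non-homologous end joining, DNA-PKcs recruits Artemis to open the hairpin, terminal transferase (TdT) may add untemplated N nucleotides, and the XRCC4 and ligase 4 complex seals the join. CtIP acts with the MRE11 complex to start resection of broken ends, which exposes single strands and favours joining at short homologies. HTGTS, high-throughput genome-wide translocation sequencing, reads outwards from a primer beside 1 break, the bait, and records what that end was joined to, the prey.

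The bait reads began at the nested primer, shown here because every bait deletion is read from it. In 1757 of the 1945 reads the first 20 bases were this oligonucleotide:
nested bait primer: caaagaccccaacgagaagc
The primer started 179 bp from the coding border of the bait. Both substrate heptamers read CACTGTG, and both coding ends began with CAG. The first coding base lay at substrate position 1943 on the bait side and 2813 on the partner side. Deletions below are counted in bp from those borders, and homology is the number of bases shared by the bait and prey alignments of a read. An end that ran past its border counted as having lost no base.

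Wild-type replicates 1 and 2 gave 535 and 289 junctions, and CtIP A/A replicates 1 and 2 gave 535 and 586. A count of 0 in the library of 289 junctions allows a share of up to 1.04%. Intervals in brackets are 95% Newcombe intervals for the difference of 2 shares and cover counting error only, as amplified reads that carry no molecular barcode need not come from separate molecules. The read names placed both first replicates in sequencing run 1 and both second replicates in run 2, so differences are also given within each run. With 2 libraries against 2, the two-sided exact permutation test has 6 arrangements and cannot go below p = 0.333, so no measure could pass the threshold of 0.05.

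The comparison asked whether the CtIP site alters how RAG-made coding ends are joined in G2 when DNA-PKcs is present. Coding joins lost few bases at either end in all 4 libraries, and between 65.0% and 68.6% of them carried inserted bases between the bait and prey alignments. No share given below differed between the genotypes in one direction and beyond counting error in both sequencing runs. Of 11 measures tested, 2 (18.2%) had groups that did not overlap, namely the median bait deletion and the microhomology share. The adjusted p was 0.815 for 9 measures and 1 for the other two (exact permutation test, Benjamini-Hochberg over the 11 measures).

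**Figure D1:**
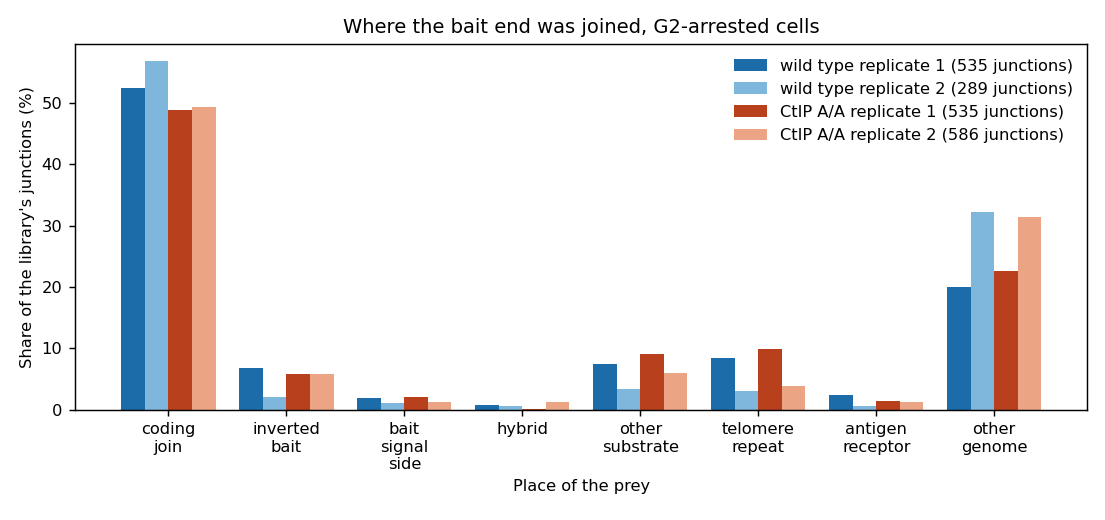
Share of each library's junctions (y axis, %) by the place of the prey (x axis), 1 bar per library. Coding joins were the largest class in all 4 libraries, from 48.8% to 56.7%, and telomere repeats were higher in both run 1 libraries (8.41% and 9.91%) than in both run 2 libraries (3.11% and 3.92%).

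The prey lay on the substrate in most junctions of every library. The substrate share was 69.2% and 64.0% in wild-type replicates 1 and 2 and 66.0% and 63.5% in CtIP A/A replicates 1 and 2. The groups overlapped, with means of 64.7% ± 1.77 for CtIP A/A and 66.6% ± 3.64 for wild type (SD, n = 2 each; difference −1.86 points, p = 0.667, exact permutation). Within run 1 the difference was −3.18 points (−8.76 to 2.43), and within run 2 it was −0.53 points (−7.17 to 6.30). Without wild-type replicate 1 it was 0.717 points. A coding join, the intended product, has its prey on the coding strand from 5 bp before to 1000 bp beyond the partner border. Coding joins numbered 280 and 164 in wild type and 261 and 289 in CtIP A/A. They made up 52.3% and 56.7% of junctions in wild type and 48.8% and 49.3% in CtIP A/A, so that both CtIP A/A libraries were lower (difference −5.49 points). That difference was −3.55 points (−9.50 to 2.43) in run 1 and −7.43 points (−14.3 to −0.392) in run 2. It was not among the tested measures.

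Other substrate products were few. Joins onto the bait's own coding side in inverted orientation numbered 36 and 6 in wild type and 31 and 34 in CtIP A/A. Their share was 2.08% in wild-type replicate 2 and between 5.79% and 6.73% in the other libraries. This class was set by the position and strand of the prey alone, and how these joins arose was not tested. Joins to the bait's own signal side numbered 10 and 3 in wild type and 11 and 7 in CtIP A/A. Hybrid joins, in which a coding end is joined to the signal end of its partner, numbered 4 and 2 in wild type and 1 and 7 in CtIP A/A. The remaining substrate junctions numbered 40 and 10 in wild type and 49 and 35 in CtIP A/A. In each of these classes the counts of the genotypes overlapped.

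Of the coding ends, the partner end was more often complete than the bait end. No partner base was missing from 113 of 280 and 62 of 164 wild-type joins (40.4% and 37.8%), and from 87 of 261 and 98 of 289 CtIP A/A joins (33.3% and 33.9%). No bait base was missing from 26.4% and 23.2% of wild-type joins and 22.2% and 24.2% of CtIP A/A joins. Both ends were complete in 26 and 15 wild-type joins and in 17 and 28 CtIP A/A joins. Only 3 and 6 wild-type joins and 5 and 4 CtIP A/A joins were precise, with both borders kept and nothing added.

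The median partner deletion was 3 and 2 bp in wild type and 3 and 4 bp in CtIP A/A (difference 1.0 bp, p = 0.667, exact permutation). The third quartile lay at 9 and 8 bp in wild type and 9 and 10 bp in CtIP A/A. Partner deletions over 20 bp were found in 14 of 280 (5.00%) and 15 of 164 (9.15%) wild-type joins and in 19 of 261 (7.28%) and 27 of 289 (9.34%) CtIP A/A joins. The 2 wild-type libraries were further apart than the genotypes, with means of 8.31% ± 1.46 for CtIP A/A and 7.07% ± 2.93 for wild type (SD, n = 2 each; difference 1.24 points, p = 0.667, exact permutation). The difference was 2.28 points (−1.84 to 6.58) in run 1 and 0.196 points (−5.90 to 5.46) in run 2. Without wild-type replicate 1 it was −0.835 points. Partner deletions over 200 bp numbered 4 and 2 in wild type and 0 and 1 in CtIP A/A, where 0 of 261 joins allows a share of up to 1.15%. The longest were 609 and 729 bp in wild type and 154 and 572 bp in CtIP A/A.

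The median bait deletion was 3 bp in both wild-type libraries and 4 bp in both CtIP A/A libraries. The groups did not overlap, and p = 0.333 is the smallest value the exact permutation test can give here. The difference was 0.75 bp with identical junctions counted once (p = 0.667, exact permutation). It was 0.5 bp with uncut lines and short prey left out, and 0.0 bp with a window of 1000 bp on either side of the partner border (p = 1 in each, exact permutation). With coding ends set at the most frequent positions it was 0.0 bp by construction. The most frequent bait end, position 1947, lies 4 bp inside the border, so medians of 3 and 4 bp both become 0.0 bp. With borders at the heptamers the difference was 1.0 bp in either run. Bait deletions over 20 bp were found in 15 (5.36%) and 17 (10.4%) wild-type joins and in 30 (11.5%) and 29 (10.0%) CtIP A/A joins. Wild-type replicate 1 was thus low and the other 3 libraries were alike, with group means of 10.8% ± 1.03 and 7.86% ± 3.54 (SD, n = 2 each; difference 2.90 points, p = 0.667, exact permutation). Within run 1 the difference was 6.14 points (1.46 to 11) and within run 2 it was −0.331 points (−6.67 to 5.18). The difference was 0.399 points without wild-type replicate 1 and 5.41 points without wild-type replicate 2.

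**Figure D2:**
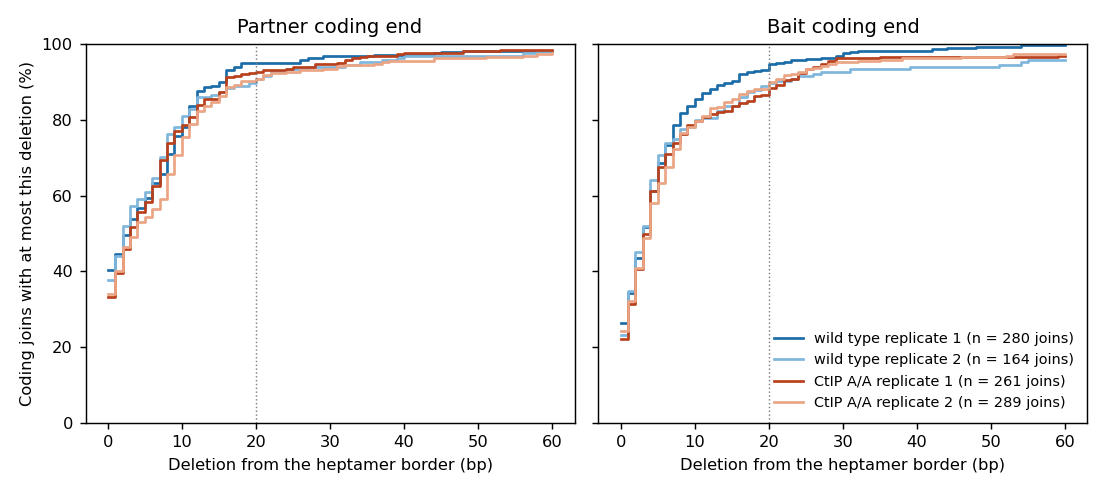
Cumulative share of coding joins (y axis, %) by deletion from the heptamer border (x axis, bp, shown up to 60) at the partner end (left) and the bait end (right), 1 line per library; the dotted line marks 20 bp. At the bait end wild-type replicate 1 lies above the other 3 libraries from about 10 bp on, with 5.36% of its joins over 20 bp against 10.0% to 11.5%.

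Joins that had lost over 20 bp at both ends numbered 3 and 11 in wild type and 8 and 17 in CtIP A/A. Of these, microhomology was read in 2 and 3 in wild type and in 4 and 11 in CtIP A/A. Joins that had lost over 20 bp at the bait end alone numbered 12 and 6 in wild type and 22 and 12 in CtIP A/A. Of those, 10 and 2 in wild type and 17 and 11 in CtIP A/A carried inserted bases. Both classes are too small, and the replicates too far apart, to order the genotypes.

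The 5 most used partner positions lay from 2 bases before the border to 2 bases after it. Position 2811, whose prey starts with the last bases of the heptamer (TG), took 15% and 16.5% of coding joins in wild type and 12.3% and 12.1% in CtIP A/A. Position 2812 took 14.6% and 9.76% in wild type and 9.96% and 9.69% in CtIP A/A. Position 2813, the border itself, took 7.50% and 6.71% in wild type and 7.66% and 7.96% in CtIP A/A. At the bait end the most used position, 1947, took 9.29% and 12.2% in wild type and 11.5% and 9.34% in CtIP A/A.

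A complete end that seems to keep heptamer bases can arise in more than 1 way. A hairpin opened off its tip leaves palindromic P nucleotides, and for ends that begin with CAG these read G or TG, the same letters as the end of the heptamer. Partner alignments that ran past the border made up 32.9% and 31.1% of wild-type joins and 25.7% and 26% of CtIP A/A joins. Both CtIP A/A libraries were lower, with a difference of −7.19 points (−14.7 to 0.499) in run 1 and −5.15 points (−14 to 3.33) in run 2, and this share was not among the tested measures. Among complete partner ends, 1 or 2 such bases were read in 83 of 113 and 43 of 62 wild-type joins and in 58 of 87 and 63 of 98 CtIP A/A joins. Bait alignments past the border made up 17.9% and 14.0% of wild-type joins and 14.2% and 16.3% of CtIP A/A joins, and the groups overlapped. Insertions of which 3 bases or more repeated the adjoining end as reverse complement were rare, at 2 and 0 in wild type and 3 and 2 in CtIP A/A. Only bases between the alignments were counted, whether or not the adjoining end was complete. Heptamer-like bases taken into an alignment were left out, so this count does not measure P nucleotides.

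Inserted bases were the commonest kind of junction. They were found in 182 (65.0%) and 110 (67.1%) wild-type joins and in 179 (68.6%) and 193 (66.8%) CtIP A/A joins. The means were 67.7% ± 1.27 for CtIP A/A and 66.0% ± 1.47 for wild type (SD, n = 2 each; difference 1.65 points, p = 0.667, exact permutation). Without wild-type replicate 1 or CtIP A/A replicate 1 the difference was 0.609 or 0.745 points, and without wild-type replicate 2 or CtIP A/A replicate 2 it was 2.68 or 2.55 points. Run 1 gave a difference of 3.58 points (−4.36 to 11.4) and run 2 one of −0.291 points (−9.06 to 8.83). With the alignments trimmed at the heptamer borders, the inserted share was 74.6% and 74.4% in wild type and 74.7% and 73.0% in CtIP A/A. The median insertion was 3 bp in each of the 4 libraries. Insertions of 10 bases or more numbered 10 and 0 in wild type and 9 and 11 in CtIP A/A.

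The inserted bases were rich in C and G, the bases that TdT is known to favour. GC made up 66.3% and 64.2% of inserted bases in wild type and 66.2% and 68.0% in CtIP A/A, over between 341 and 796 bases. C alone made up between 37.5% and 40.1%. Insertions of 8 bases or more numbered 22 and 3 in wild type and 19 and 24 in CtIP A/A, and no such sequence was shared between libraries. The longest insertion of each library is shown to give their range and composition; where these bases came from was not tested.
wild type replicate 1: gcggtctcagaattatacg
wild type replicate 2: agacactca
CtIP A/A replicate 1: caacactccttcccgcctccacgctcgt
CtIP A/A replicate 2: agctggcctggcgcctaaccgtg
These 4 insertions were 19, 9, 28 and 23 bases long, and the coding ends beside them had lost between 1 and 17 bp.

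**Figure D3:**
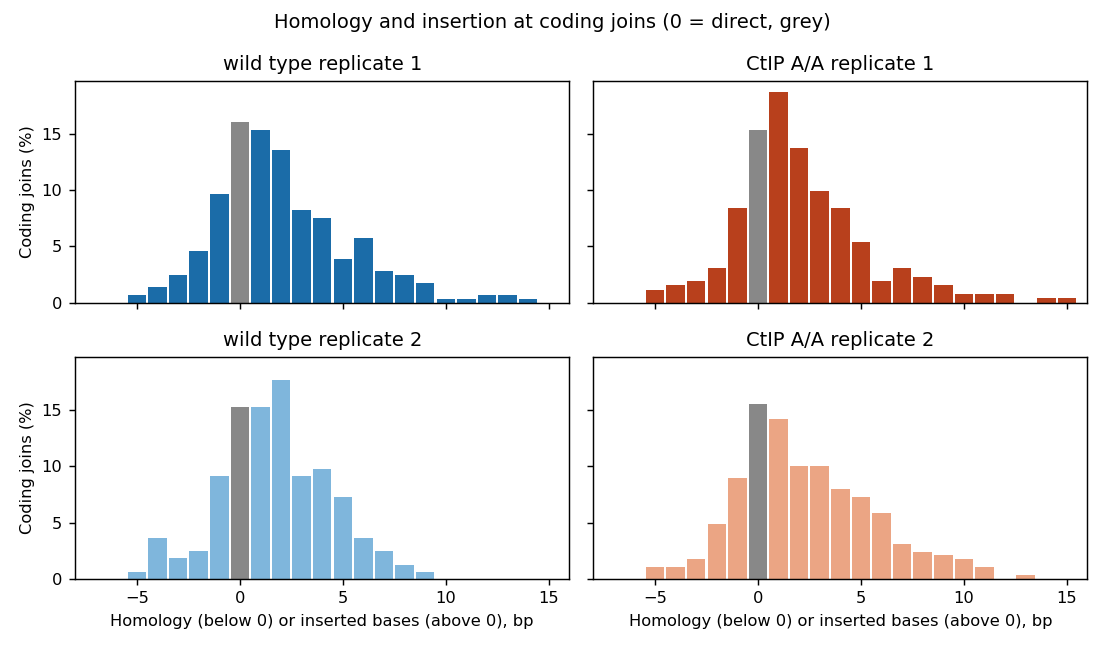
Share of coding joins (y axis, %) by bases of homology (below 0) or inserted bases (above 0) at the junction (x axis, bp), 1 panel per library, with direct joins in grey; a few insertions of 16 bases or more lie beyond the axis. The 4 profiles overlap, with 15.2% to 16.1% direct joins and no homology longer than 5 bp.

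Direct joins, with neither homology nor insertion, made up 16.1% and 15.2% of coding joins in wild type and 15.3% and 15.6% in CtIP A/A (difference −0.209 points, p = 1, exact permutation), and the difference was 0.204 points without wild-type replicate 1. At least 1 base of homology was read in 18.9% and 17.7% of joins in wild type and 16.1% and 17.6% in CtIP A/A. The CtIP A/A libraries were both lower, with means of 16.9% ± 1.1 and 18.3% ± 0.881 (SD, n = 2 each; difference −1.44 points, p = 0.333, exact permutation). Without CtIP A/A replicate 1 or wild-type replicate 1 it was −0.659 or −0.813 points, and without CtIP A/A replicate 2 it was −2.21 points. The difference was −2.84 points (−9.21 to 3.62) in run 1 and −0.0359 points (−7.70 to 6.96) in run 2. With the alignments trimmed at the heptamer borders, the microhomology share was 12.1% and 10.4% in wild type and 9.58% and 13.1% in CtIP A/A, and the difference became 0.109 points.

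Most homologies were 1 base long, with C the commonest at a mean of 4.29% of joins. Homologies of 4 bp or more were found in 6 and 7 wild-type joins and 7 and 6 CtIP A/A joins, and the longest was 5 bp in every library. Their share differed by −0.827 points between the genotypes, and by 0.236 points without wild-type replicate 2. The commonest of them, TGCA, is the overlap read when intact ends are joined exactly, since the bait runs on into CA at its heptamer and the partner is preceded by TG. Of the joins with 4 bp or more, 2 and 5 in wild type and 5 and 4 in CtIP A/A were precise by their alignment positions. TGCA itself was read in 2 and 4 joins in wild type and 3 and 3 in CtIP A/A. After trimming at the borders, 2 and 2 joins in wild type and 1 and 2 in CtIP A/A still had 4 bp or more.

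**Figure D4:**
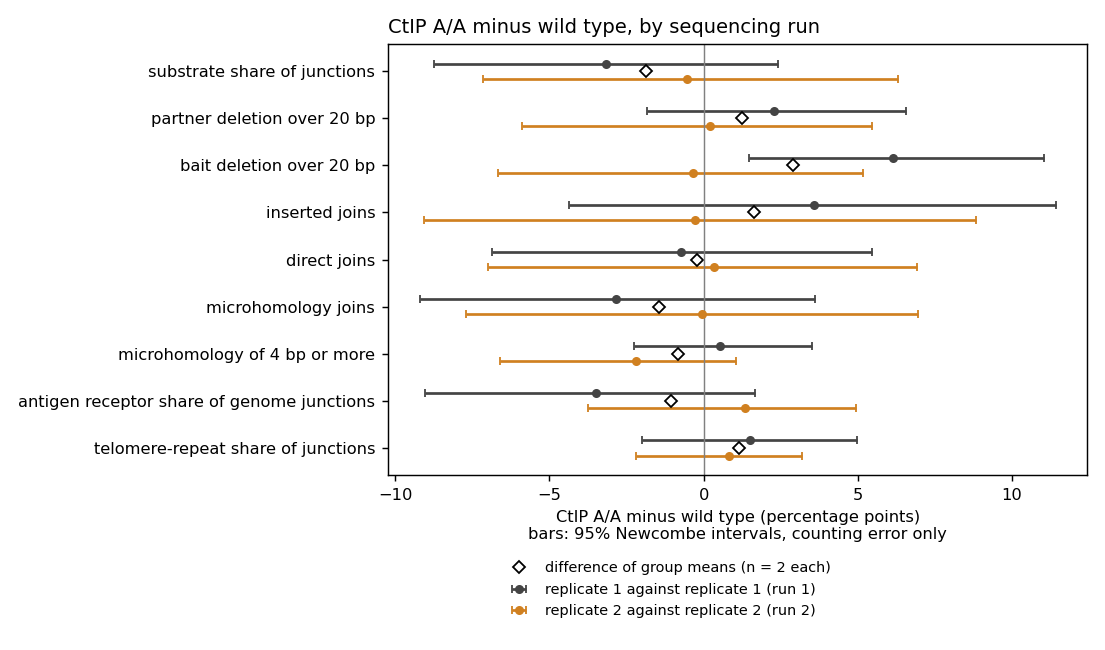
CtIP A/A minus wild type (x axis, percentage points) for the 9 tested shares (y axis), as the difference of group means (diamonds, n = 2 each) and within sequencing runs 1 and 2 (circles with 95% Newcombe intervals, counting error only). In run 1 the interval of bait deletions over 20 bp (1.46 to 11) lies above 0, and the other 17 intervals include 0.

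Junctions outside the substrate fell into telomere repeats and the rest of the genome. Prey with at least 3 exact telomere units made up 8.41% and 3.11% of junctions in wild type (45 and 9) and 9.91% and 3.92% in CtIP A/A (53 and 23). The run 1 libraries were higher in both genotypes, and the genotypes differed by 1.5 points (−1.99 to 4.99) in run 1 and 0.811 points (−2.18 to 3.21) in run 2. The difference of group means was 1.15 points, but −1.84 points without CtIP A/A replicate 1 and −1.5 points without wild-type replicate 2. In run 1 many of these junctions shared 1 bait end, 110 bp from the border, with 15 in wild type and 11 in CtIP A/A. The remaining genome junctions numbered 120 and 95 in wild type and 129 and 191 in CtIP A/A. Of these, 56.7% and 52.6% in wild type and 53.5% and 58.6% in CtIP A/A lay in annotated genes.

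The bait ends of genome junctions fell into a group near the border and a group far from it, while those of coding joins lay mostly near it. The bait end lay within 20 bp of the border in 56 of 120 (46.7%) and 4 of 95 (4.21%) wild-type junctions and in 36 of 129 (27.9%) and 57 of 191 (29.8%) CtIP A/A junctions. Here and below, ends that ran past the border by any length were counted as within 20 bp. Both CtIP A/A values lay between those of wild type, whose replicates were further apart than any other pair. The difference was accordingly −18.8 points (−30.1 to −6.75) in run 1 and 25.6 points (17 to 32.9) in run 2. Bait ends over 80 bp from the border made up 43.3% and 87.4% of the genome junctions in wild type and 69.0% and 62.3% in CtIP A/A.

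**Figure D5:**
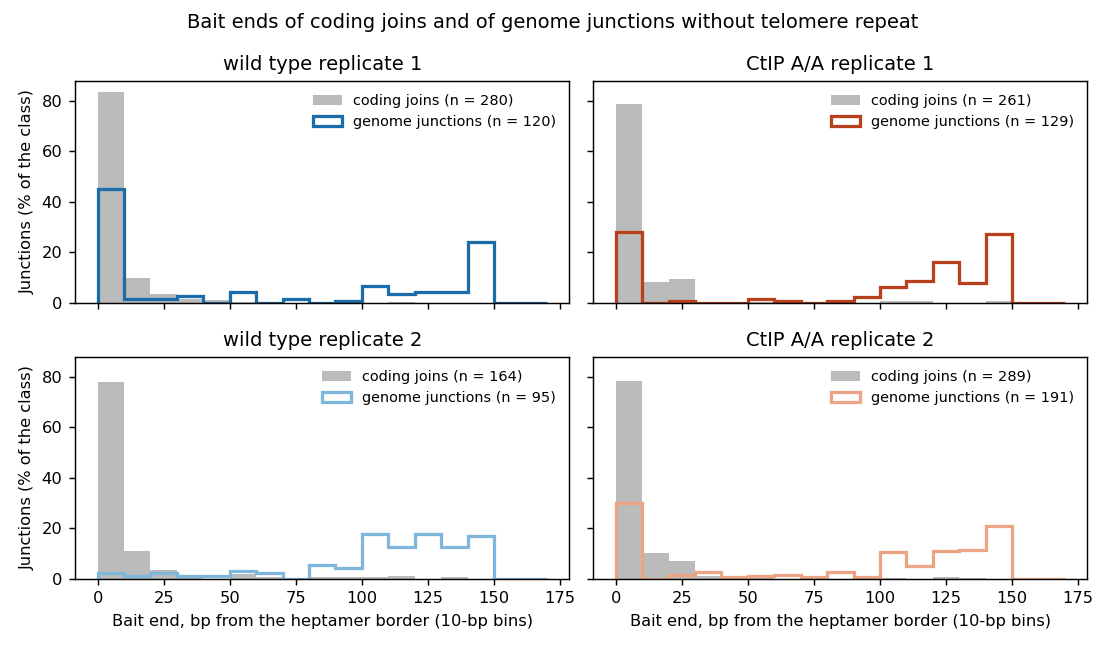
Distance of the bait end from the heptamer border (x axis, 10-bp bins) as a share of each class (y axis, %), for coding joins (grey) and genome junctions without telomere repeat (line), 1 panel per library. Coding joins pile up in the first bin in all 4 libraries, while genome junctions lie both near the border and beyond 80 bp, with 4 of 95 near the border in wild-type replicate 2.

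Far bait ends were spread over many positions, and the fullest position was the same in both libraries of each run. The end at 142 bp took 11 junctions in wild-type replicate 1 and 15 in CtIP A/A replicate 1. The end at 109 bp took 11 in wild-type replicate 2 and 10 in CtIP A/A replicate 2, and that at 121 bp took 9 and 8. Other positions were filled unevenly within a run, such as 147 bp with 2 junctions in wild-type replicate 1 and 9 in CtIP A/A replicate 1. Of the far junctions, 30 of 52 and 16 of 83 in wild type and 35 of 89 and 41 of 119 in CtIP A/A had a bait alignment of 40 bp or less, of which the primer itself is 20. No bait alignment in the 4 libraries was shorter than 30 bp. Far junctions carried microhomology in 67.3% and 37.3% of cases in wild type and 42.7% and 62.2% in CtIP A/A, with median lengths of 6, 4, 5 and 5 bp. The part of priming or alignment in these junctions was not tested, and any measure over all genome junctions includes them.

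The 6 antigen receptor loci, the natural targets of RAG, took 13 of 165 (7.88%) and 2 of 104 (1.92%) genome junctions in wild type and 8 of 182 (4.40%) and 7 of 214 (3.27%) in CtIP A/A, telomere repeats included. Both CtIP A/A values again lay between those of wild type (3.83% ± 0.795 against 4.90% ± 4.21, SD, n = 2 each; difference −1.07 points, p = 1, exact permutation). The difference was −3.48 points (−9.05 to 1.68) in run 1 and 1.35 points (−3.75 to 4.95) in run 2, and it was 1.91 points without wild-type replicate 1 and −4.05 points without wild-type replicate 2. Igh, the heavy chain locus, took 7 and 0 junctions in wild type and 3 and 2 in CtIP A/A. Igk, the kappa light chain locus, took 5 and 2 in wild type and 3 and 5 in CtIP A/A. Igl, the lambda light chain locus, took 1 and 0 in wild type and 2 and 0 in CtIP A/A. The T cell receptor loci Trb, Tra/Trd and Trg took 0 in every library.

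In receptor junctions the bait end mostly lay close to its border. It lay within 20 bp of the border in 24 of the 30 receptor junctions and in 129 of the 505 other genome junctions. By library, that was 13 of 13 and 0 of 2 in wild type and 7 of 8 and 4 of 7 in CtIP A/A. Ends past the border were included, among them an Igk junction of CtIP A/A replicate 1 whose bait end ran 28 bases past it. In 19 of the 30 (63.3%) an exact heptamer, CACAGTG or its reverse complement CACTGTG, lay within 20 bp of the prey position. Such a heptamer lies within 20 bp of 0.913% of all positions of chromosome 6, which holds Igk, and 0.919% of chromosome 12, which holds Igh.

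The 3 stretches of reference sequence (mm10, plus strand) below show where receptor prey gathered, with the heptamer in capitals. They are the receptor sites with at least 2 junctions within 20 bp of 1 exact heptamer.
Ighv1-54, chr12:115193634-115193694: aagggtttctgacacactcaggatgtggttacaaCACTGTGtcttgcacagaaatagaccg
Igkj1, chr6:70722521-70722581: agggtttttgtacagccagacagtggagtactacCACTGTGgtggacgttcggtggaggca
Igkj4, chr6:70723507-70723567: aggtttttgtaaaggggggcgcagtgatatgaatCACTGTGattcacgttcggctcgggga
Ighv1-54 is a variable segment of the heavy chain on the minus strand, and its heptamer adjoins the end of its exon. Wild-type replicate 1 had both junctions there, at 115193674 and 115193675. Igkj1 (chr6:70722562-70722599) and Igkj4 (chr6:70723548-70723585) are joining segments of the kappa light chain, each starting at the base after its heptamer. At Igkj1, CtIP A/A replicate 2 had 2 junctions at 70722564 and wild-type replicate 1 had 1 at 70722565, all reading into the segment. At Igkj4, 3 junctions of wild-type replicate 1 and 1 each of CtIP A/A replicates 1 and 2 lay within 20 bp of the heptamer, 4 of them reading away from the segment on the signal side. Another cluster lay beside Ighv8-7, with 3 junctions of wild-type replicate 1 and 1 of CtIP A/A replicate 1 between 115258131 and 115258134 and no exact heptamer within 20 bp. With at most 5 junctions a site, no difference between genotypes was detectable.

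Outside the annotated bounds of the receptor loci, exact heptamers were also met beside prey that was joined to a bait end near its border. One lay within 20 bp of the prey in 9 of 43 and 0 of 4 such junctions in wild type and in 9 of 29 and 8 of 53 in CtIP A/A, 26 of 129 (20.2%) in all. With the bait end over 80 bp away, it was 2 of 336 (0.595%), close to the share of chromosomal positions. In 22 of the 26 the prey began 0 to 7 bases beyond the heptamer, counted in prey direction whichever way the heptamer pointed. Read along the prey, 17 of the 26 heptamers were CACTGTG, as at the substrate borders. The other 9 were CACAGTG, with the prey on the signal side. Of the 26, 21 lay in genes. Over all genome junctions with the bait end within 20 bp, receptor loci included, 39 of 56 and 3 of 4 did in wild type. In CtIP A/A, 21 of 36 and 40 of 57 did. These 26 junctions used 24 sites, of which 1 was met in more than 1 library.
Site 24.8 kb beyond Igk, chr6:70751740-70751800, plus strand: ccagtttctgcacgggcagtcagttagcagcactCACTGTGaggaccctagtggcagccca
Tmem189 intron, chr2:167685242-167685302, minus strand: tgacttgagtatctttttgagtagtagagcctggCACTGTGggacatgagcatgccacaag
The first lay in no annotated gene and had 1 junction in each CtIP A/A library, at 70751784 and 70751785, and none in wild type. Each locus was bounded by its annotated segments, so these junctions were counted outside Igk. Whether this site belongs to Igk was not tested. The other, in an intron of Tmem189, had 2 junctions in wild-type replicate 1, at 167685258 and 167685261. Both sites were singled out after their values were seen. Of 8 known translocation partner genes looked up (Myc, Pvt1, Notch1, Ccnd1, Ccnd2, Bcl6, Mycn and Pax5), only Notch1, a receptor gene often mutated in T cell leukaemia, held a junction. It was in CtIP A/A replicate 1, in an intron at chr2:26483669, beside a heptamer.

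The same genotypes were compared where DNA-PKcs is absent and in G1. In G2-arrested DNA-PKcs -/- cells, CtIP A/A minus wild-type CtIP was −5.24 points for partner deletions over 20 bp, 8.31 points for inserted joins and −7.74 points for microhomology joins. Against the DNA-PKcs-present cells the CtIP difference moved by −6.47, 6.66 and −6.30 points (p = 0.278, 0.556 and 0.667, exact permutation over 36 arrangements, adjusted p = 0.667 each). These contrasts depended on single libraries. Without replicate 2 of CtIP A/A DNA-PKcs -/- they were −1.24, 0.836 and 0.686 points, and without replicate 1 they were −11.7, 12.5 and −13.3 points. Without DNA-PKcs -/- replicate 1 the partner and microhomology contrasts were −4.22 and −11.1 points, and without its replicate 2 the inserted and microhomology contrasts were 3.95 and −1.53 points. With deletion limits of 10 and 50 bp in place of 20 bp, the partner contrast was −1.09 and −1.47 points. The smallest p those arrangements allow is 0.0556, so the contrast could not pass the threshold either. In G1-arrested DNA-PKcs-present cells (STI571, 3 µM for 48 or 72 h), 1 library a genotype, 417 of 834 CtIP A/A junctions and 829 of 2993 wild-type junctions (27.7%) were coding joins. Partner deletions over 20 bp made up 16.5% and 17.2% of G1 coding joins, and inserted joins 70.5% and 68.2%, with CtIP A/A given first. These G1 differences have no replicate check.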

How the data were processed

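HTGTS libraries of sonicated genomic DNA were amplified from the substrate, cleared of germline substrate with BstBI and sequenced on a MiSeq, per the labels' protocols. Bowtie2 and mm10 are named in the submitters' processing notes, with the substrate as an additional chromosome. Versions, the junction caller and its handling of duplicates are not given in the sources used here. Per the file headers, each deposited line is 1 junction with its base positions on the reference and the read, and nothing is normalized.

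Borders were taken from the heptamers in the reads' own substrate sequence. Over 662 genome junctions, 97.3% of the aligned bases not already marked as mismatches equalled the GRCm38 reference behind mm10. This checks the positions and is not a rate of mismatches. Genes follow GENCODE M21. Lines beyond the first with the same positions made up 15.2% to 18.9% of the 4 libraries, but only 1.04% to 2.05% also shared the junction sequence, so all lines were kept. Values were computed per library in Python 3.11.15 with numpy 2.4.6 and pandas 2.3.3, plots drawn with matplotlib 3.10.9, and the measures tested on simulated data. Each library counted once. Whether equal replicate numbers pair the samples rests on their shared run in the read names. The libraries, lists and measures were chosen with earlier results of these data known, among them the loci, 8 partner genes, 5 most used positions and 1 Mb bins with at least 3 junctions in at least 2 libraries. Samples with I-PpoI breaks are not analysed here.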

Additional observations from a re-analysis of the deposited data

Results flagged for a closer look

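With borders at the heptamers, the CtIP difference in the median bait deletion had opposite signs with and without DNA-PKcs in G2. CtIP A/A minus wild type was 1.0 bp with DNA-PKcs and −7.5 bp without it, a difference of −8.5 bp. Its p was 0.0556 (exact permutation of the CtIP labels over 36 arrangements, the smallest they can give), not adjusted for the other measures looked at. The measure was flagged because its groups separated fully in opposite directions, and any measure picked in that way gives this p. It therefore restates the choice and tests nothing further. Both CtIP A/A libraries stood at 4 bp against 3 bp in both wild-type libraries. Without DNA-PKcs the medians were 29 and 19 bp in DNA-PKcs -/- cells and 18 and 15 bp in CtIP A/A DNA-PKcs -/- cells. This measure was not among the 3 contrasts chosen for the test of DNA-PKcs status. With DNA-PKcs the difference was 0.0 bp with the window of 1000 bp on either side, so its positive sign rests on that choice. Coding ends at the most frequent positions cannot decide the sign. The most frequent bait end lies 4 bp inside the border, which sets medians of 3 and 4 bp to 0.0 bp. The difference without DNA-PKcs was not recomputed in either setting. The cause was not tested.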

How the results depend on the processing

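Over 190 alternative values for 14 results, the direction reversed in 17, and 5 results never reversed. The 190 include values that could not reverse, as the replicate block leaves every difference as it was and trimming leaves deletions as they were. Of the 5, 1 was the median bait deletion. It was 0.75 bp with identical junctions counted once, 0.5 bp in 1 setting and 0.0 bp in 2, of which the most frequent positions gave 0.0 bp by construction. No alternative reached p under 0.05 (lowest 0.125, exact permutation), though only the DNA-PKcs contrast had arrangements enough to come near it. With the window of 1000 bp on either side of the partner border, which takes in joins onto the inverted bait, the differences were −1.29 points for inserted joins, 2.35 for microhomology joins and 2.70 for homologies of 4 bp or more. With alignments trimmed at the borders they were −0.655 for inserted, 0.546 for direct and 0.109 for microhomology joins. Direct joins differed by 0.386 with uncut lines and short prey left out and by 1.72 with inserted joins out of the denominator. The antigen receptor share differed by 0.269 over near-border bait ends only, chosen after seeing the data. In each of these the cause was not tested.

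Leaving out 1 library at a time gave ranges of −4.43 to 0.717 for the substrate share, −0.835 to 3.31 for partner deletions over 20 bp, −0.623 to 0.204 for direct joins and −1.89 to 0.236 for homologies of 4 bp or more. They were 0.609 to 2.68 for inserted joins, −2.21 to −0.659 for microhomology joins, −11.7 to −1.24 for the DNA-PKcs contrast of partner deletions and 0.836 to 12.5 for that of inserted joins. The ranges were −4.05 to 1.91 for the antigen receptor share, −1.84 to 4.14 for the telomere share and −13.3 to 0.686 for the DNA-PKcs contrast of microhomology joins. With the replicate block, which here is also the run, differences were as printed, for example 1.24 points for partner deletions over 20 bp, and the smallest p it allows is 0.5 for measures of 2 libraries against 2 (exact permutation). For the DNA-PKcs contrast of partner deletions its p was 0.125 (exact permutation), the smallest the block allows there, so it could change no call. Of 75 untested values, 1 moved by the replicate SD or more: partner deletions over 200 bp differed by −1.65 points with identical junctions counted once. The replicate SD is wide for several others. With uncut lines and short prey left out, genome inserted joins turned from −1.29 to 1.43 points, bait bases past the border from −0.721 to 0.433, far genome microhomology from 0.112 to −2.61, and near-border genome microhomology went from −12.6 to −26.8. Depth limits rare classes most, with 164 coding joins in wild-type replicate 2.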

Other observations

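Only 1 bin of 1 Mb outside the receptor loci held at least 3 junctions in at least 2 of the 4 libraries, chr2:167000000-167999999, with 6 and 0 junctions in wild type and 1 and 3 in CtIP A/A. In wild-type replicate 1, 3 of the 6 lay in introns of Tmem189 and 2 in an intron of A530013C23Rik, and all 6 had a bait deletion of at most 4 bp. In wild-type replicate 2, 6 junctions fell on chromosome 11 between 98922880 and 98983675, of which 4 lay in introns of Rara, the retinoic acid receptor alpha gene, and 1 in an exon of Cdc6, which loads the replicative helicase. The bait ends of these 6 lay 142, 20, 138, 145, 5 and 118 bp from the border. Most were thus in the far group, where the part of priming or alignment was not tested. This stretch was singled out after its values were seen.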
